A study of Mus musculus with 27 samples.

Results

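The NRF2 module described here is a list of 42 named genes for the NRF2 transcription factor and its regulators, for its classical target genes, and for glutathione, thioredoxin and NADPH metabolism. Glutathione transferases were left out of it. A gene was represented by a probe set annotated to its symbol alone, and by the brightest over all arrays where there were several. In this way 38 of the 42 genes were matched, out of 19938 genes tested in all, and 4 genes (Ggt1, Prdx5, Prdx6 and G6pdx) are not analysed here. The measurements are 27 expression arrays of TAMH cells, which are immortalised hepatocytes from transgenic mice that overexpress TGF-alpha. The cultures were given 2 mM acetaminophen (APAP), 2 mM of the regioisomer AMAP, or medium alone as control, and were taken after 2, 6 or 24 h. APAP and AMAP differ in the position of the ring hydroxyl group, which is para to the amide in APAP and meta in AMAP. The 9 combinations of treatment and time hold 3 arrays each, whose titles end in P30, P31 and P32, written here as array 30, 31 and 32. All cultures shared a serum-free medium with dexamethasone, nicotinamide, gentamicin, insulin, transferrin and selenium. The labels give cell passages of 25 to 35 and 2 dishes per treatment. They do not say what the number stands for, so it may be a passage that arrays of different groups share. They also do not say whether the arrays of a group came from separate cultures, so the p-values measure the spread between these samples, which may be technical.

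NRF2, encoded by Nfe2l2, is a transcription factor that KEAP1 marks for degradation until electrophiles or oxidants modify KEAP1. Stabilised NRF2 pairs with small MAF proteins at antioxidant response elements and raises genes for glutathione synthesis, quinone reduction, peroxide removal and NADPH supply. In liver this programme is known as a defence against reactive metabolites such as the quinone imine of acetaminophen, which binds glutathione.

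The core of the antioxidant response element, TGACNNNGC, was searched on both strands of promoter windows from 250 bases before to 50 bases after a gene start in RefSeq (GRCm38.p6), where a gene can have several starts and windows. Of the 38 members, 35 had a promoter entry, and 9 of these held the motif in at least 1 window (25.7%). Hmox1, Gclc and Gsr had no promoter entry and were not searched. The share over all 27025 genes with a promoter entry was 14.0%. Counted by window, 9 of 47 windows of members held it (19.1%), against 4071 of 32851 windows of all genes (12.4%). The 9 were Nfe2l2, Mafg, Srxn1, Txnrd1, Gclm, Prdx1, Sod1, Pgd and Me1. None of the 7 members with a promoter entry among those called in a treatment comparison below held a match. The 5 sites shown are those of the classical targets Srxn1, Txnrd1 and Gclm and of the NADPH enzymes Pgd and Me1, and they were chosen after the matches were seen. Each is printed 5′ to 3′ on the strand of its gene with 10 flanking bases on either side, and the capitals mark the motif, which reads GCNNNGTCA where it lies on the opposite strand.
Srxn1: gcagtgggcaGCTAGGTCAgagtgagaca
Txnrd1: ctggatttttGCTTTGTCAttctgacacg
Gclm: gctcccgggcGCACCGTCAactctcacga
Pgd: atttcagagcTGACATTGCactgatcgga
Me1: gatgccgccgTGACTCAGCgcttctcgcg
The motif lay at chr2:152105552-152105560 for Srxn1, chr10:82859114-82859122 for Txnrd1, chr3:122245423-122245431 for Gclm, chr4:149166071-149166079 for Pgd and chr9:86695912-86695920 for Me1. The genes Srxn1, Txnrd1 and Gclm lie on the plus strand, and Pgd and Me1 on the minus strand. Relative to the gene start of its window, the motif began at -134 for Gclm, -92 for Txnrd1 and -6 for Me1. It began downstream of the start for Srxn1 (28) and Pgd (3), so these 2 matches lie in transcribed sequence by those starts. The matched Pgd window (chr4:149166033-149166332) itself lies downstream of the gene's other window (chr4:149166656-149166955). Counted from that other start, the Pgd match is a site inside the gene and not in its upstream promoter. Pgd is among the 9 by this window alone. The match was in 1 of 3 windows of Txnrd1, 1 of 2 of Pgd and 1 of 2 of Me1, and their other windows held none, while Srxn1 and Gclm have 1 window each. A match to these letters is a description of the window and does not show that NRF2 binds there.

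Signals are on the log2 scale, as the authors deposited them. Differences are those of a linear model across all genes, each with its standard error after the ± sign and 3 arrays in each group. A gene was called, and is said to rise or fall, where the Benjamini-Hochberg adjusted p of limma over all 19938 genes was under 0.05. Array medians lay between 7.25 and 7.36. Across genes, which are no replicates, the r of 2 arrays of one group was 0.992 to 0.997. Precision is limited by the number of arrays, and standard errors of a difference had a median of 0.1. Whether groups overlap is given as a description of the arrays. It is no test, and the share of all genes with groups that do not overlap was not counted. Of 8 hepatocyte markers 7 were matched, and their median signal in control cultures stood at the 99.2 percentile of the genes tested, and none of them was called in any treatment comparison. The median percentile was 23.4 for 5 macrophage and leukocyte markers, 24.5 for 4 endothelial, 52.8 for 5 fibroblast and stellate and 77.45 for 4 biliary and progenitor markers. These lists were mixed except the endothelial one, which ran from 22.1 to 25.3. Macrophage and leukocyte markers ran from 12 (Adgre1) to 95.7 (Cd14). Fibroblast and stellate markers ran from 18.5 (Des) to 98.8 (Dcn), and biliary and progenitor markers from 34.7 (Epcam) to 92.7 (Krt7). Of all these other markers Cd14 and Sox9 were called, each in 2 treatment comparisons, and their part in the results below was not tested. In bulk RNA, a change in how many cells of a type are present and a change in RNA per cell cannot be told apart.

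Most of the module did not pass the test at any time. Of 38 members, 8 were called in at least 1 of the 9 comparisons between treatments (21.1%), all of them at 24 h, against 12.5% of all genes tested. The 8 were the epoxide hydrolase Ephx1, the carbonyl reductases Cbr1 and Cbr3, the glutathione enzymes Gss and Gsr, the thioredoxin reductase Txnrd2, catalase (Cat) and transketolase (Tkt). Group means of a member spanned 0.15 log2 units over the 9 groups for Gpx4, the peroxidase of lipid hydroperoxides, and 1.58 units for Slc7a11, the cystine importer. The lowest of the 9 group means was that of APAP at 24 h for 17 of 38 members (44.7%), against 18.6% of all genes. The highest was that of AMAP at 2 h for 9 members (23.7%), against 8.88% of all genes.

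**Figure D1:**
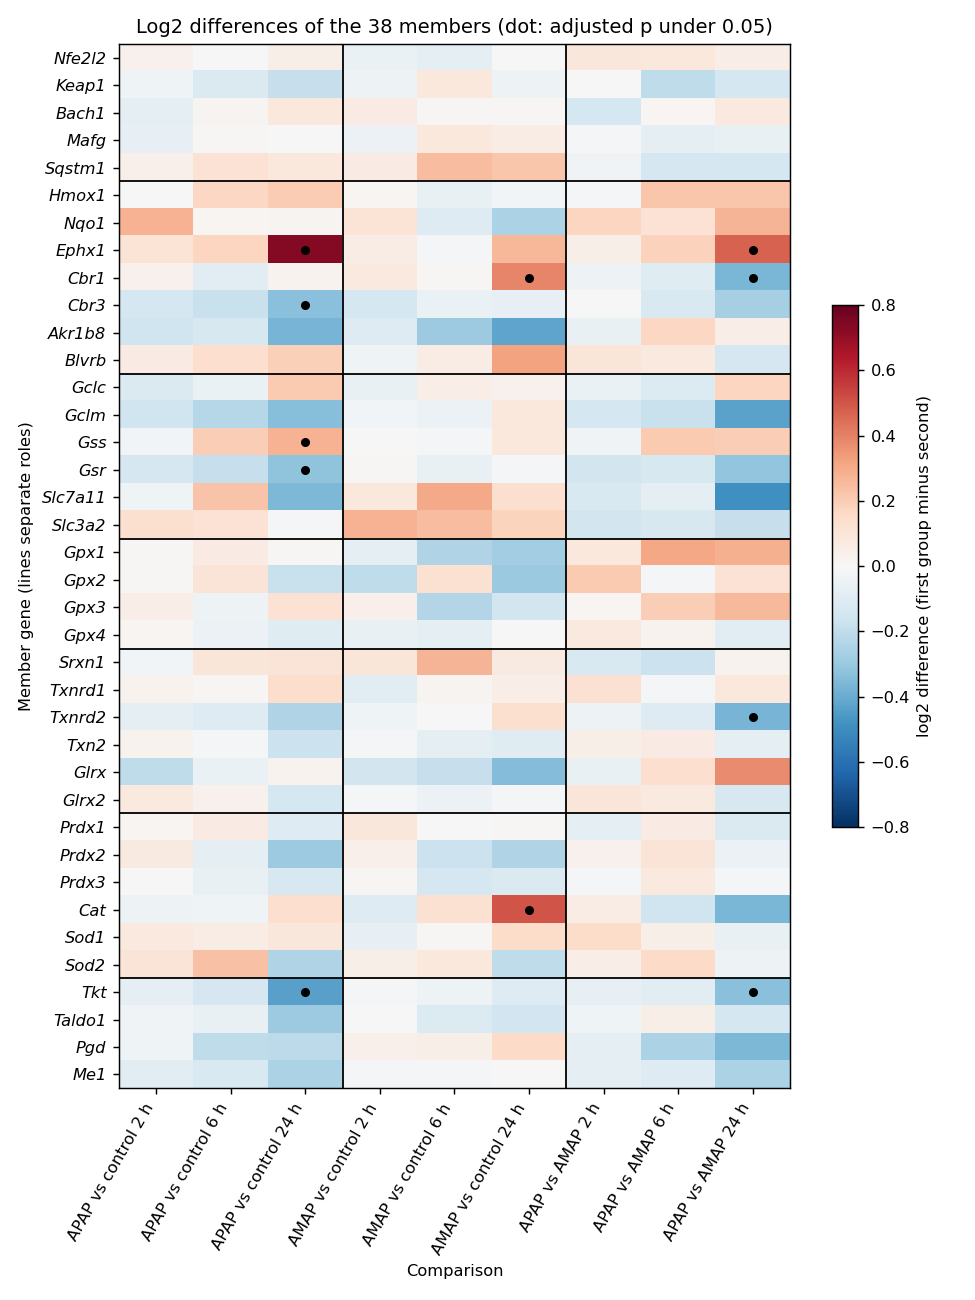
Heat map of the log2 difference of each of the 38 members (rows, grouped by role) in each of the 9 treatment comparisons (columns); red is higher and blue lower in the group named first in the comparison, and dots mark calls at adjusted p under 0.05. Dots are seen in the 24 h columns alone: 5 for APAP against control, 2 for AMAP against control and 4 for APAP against AMAP.

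The comparison of APAP with control asks which of these genes responded to the drug. At 24 h, 5 of 38 members were called (13.2%), against 9.33% of all genes tested. Ephx1 and Gss rose, where 3.36% of all genes were called higher, and Tkt, Gsr and Cbr3 fell, where 5.97% were called lower. The median difference was -0.053 over the members and 0.018 over all genes, and 12 of 38 members had an unadjusted p under 0.05, as did 4442 of 19938 genes.

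Ephx1, the microsomal epoxide hydrolase, which opens reactive epoxides to diols, had 12.23, 12.33 and 11.97 in APAP cultures at 24 h, against 11.39, 11.48 and 11.46 in control cultures. All 3 APAP arrays were higher than every control array. It rose by 0.74 ± 0.10 in log2 units (1.67-fold, adjusted p = 1.63e-05), and the call held without any single array or number (0.662 to 0.847 over the alternatives). Gss, which joins glycine to gamma-glutamylcysteine in the last step of glutathione synthesis, had 9.82, 10.01 and 9.86 in APAP cultures, against 9.59, 9.58 and 9.69 in control cultures. Its groups did not overlap, and it rose by 0.28 ± 0.08 (1.21-fold, adjusted p = 0.02798). The call of Gss was lost without APAP array 31 (0.22, adjusted p = 0.1574), control array 30 (0.26, adjusted p = 0.09533) or control array 31 (0.26, adjusted p = 0.1039), and with the 24 h arrays alone in the model (adjusted p = 0.05474).

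Tkt, the transketolase of the pentose phosphate pathway, had 11.31, 11.08 and 11.23 in APAP cultures at 24 h, against 11.61, 11.66 and 11.65 in control cultures. Its groups lay apart, with the APAP arrays lower. The log2 difference was -0.43 ± 0.08 (1.35-fold lower, adjusted p = 0.0005905), and the call held without any single array, though not without all arrays of number 31 (-0.36, adjusted p = 0.06862). Gsr, which reduces glutathione disulfide with NADPH, had 9.65, 9.45 and 9.70 in APAP cultures, against 9.81, 9.97 and 9.99 in control cultures. Again every APAP array was lower than every control array. The difference was -0.32 ± 0.10 (1.25-fold lower, adjusted p = 0.04931). The call of Gsr stood close to the threshold, and among omissions of 1 array it held on that of APAP array 32 alone. Without 1 of the other 5 arrays the difference was -0.38 to -0.25 and the adjusted p 0.05081 to 0.2373, and quantile normalization gave -0.27 (adjusted p = 0.08739). Cbr3, a carbonyl reductase of quinones, had 6.57, 6.47 and 6.60 in APAP cultures, against 6.97, 6.81 and 6.85 in control cultures. Its groups did not overlap, and it differed by -0.33 ± 0.10 (1.26-fold lower, adjusted p = 0.02678). The call was lost without APAP array 30 or 31 or control array 30 or 32 (-0.345 to -0.285, adjusted p 0.05402 to 0.1223).

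At 2 and 6 h none of the 38 members was called for APAP against control with limma. An unadjusted p under 0.05 was held by 1 member at 2 h and 2 members at 6 h, and by 1846 and 2444 of 19938 genes. The share of all genes called was 0.682% at 2 h and 2.50% at 6 h. Member differences ran from -0.20 to 0.28 at 2 h and from -0.23 to 0.24 at 6 h. Ephx1 had 11.40, 11.45 and 11.51 in APAP cultures at 2 h, against 11.39, 11.23 and 11.42 in control cultures. At 6 h it had 11.65, 11.58 and 11.66 in APAP cultures, against 11.22, 11.58 and 11.58 in control cultures, so the groups overlapped at both times. The APAP effect on Ephx1 at 24 h exceeded that at 2 h by 0.63 ± 0.14 (adjusted p = 0.03694), a contrast in which Ephx1 was the sole member called of 38 (2.63%, against 0.356% of all genes, 0.171% higher). That call was lost without any 1 of 10 of the 12 arrays of the contrast (adjusted p 0.05549 to 0.09487). It held without APAP array 32 of 24 h or control array 31 of 2 h.

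The other members called with APAP at 24 h did not pass the test at 2 or 6 h. Tkt had 11.66, 11.60 and 11.49 at 2 h and 11.65, 11.61 and 11.47 at 6 h in APAP cultures, against 11.68, 11.66 and 11.64 at 2 h and 11.62, 11.68 and 11.83 at 6 h in control cultures. Gsr had 10.14, 10.35 and 10.23 at 2 h and 10.08, 10.17 and 9.98 at 6 h in APAP cultures, against 10.24, 10.44 and 10.44 at 2 h and 10.14, 10.48 and 10.17 at 6 h in control cultures. Both genes had overlapping groups at both times. Gss had 9.81, 9.90 and 9.71 at 2 h and 10.03, 9.97 and 10.07 at 6 h in APAP cultures, against 9.85, 9.74 and 9.90 at 2 h and 9.79, 9.98 and 9.70 at 6 h in control cultures. Its difference at 6 h was 0.20 ± 0.08 (95% interval 0.03 to 0.37, adjusted p = 0.2741), with groups that overlapped. Cbr3 had 7.13, 7.23 and 6.99 at 2 h and 6.93, 6.83 and 6.83 at 6 h in APAP cultures, against 7.27, 7.22 and 7.28 at 2 h and 7.08, 7.03 and 7.00 at 6 h in control cultures. At 6 h the Cbr3 groups did not overlap, with a difference of -0.18 ± 0.10 (95% interval -0.37 to 0.02, adjusted p = 0.4934).

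**Figure D2:**
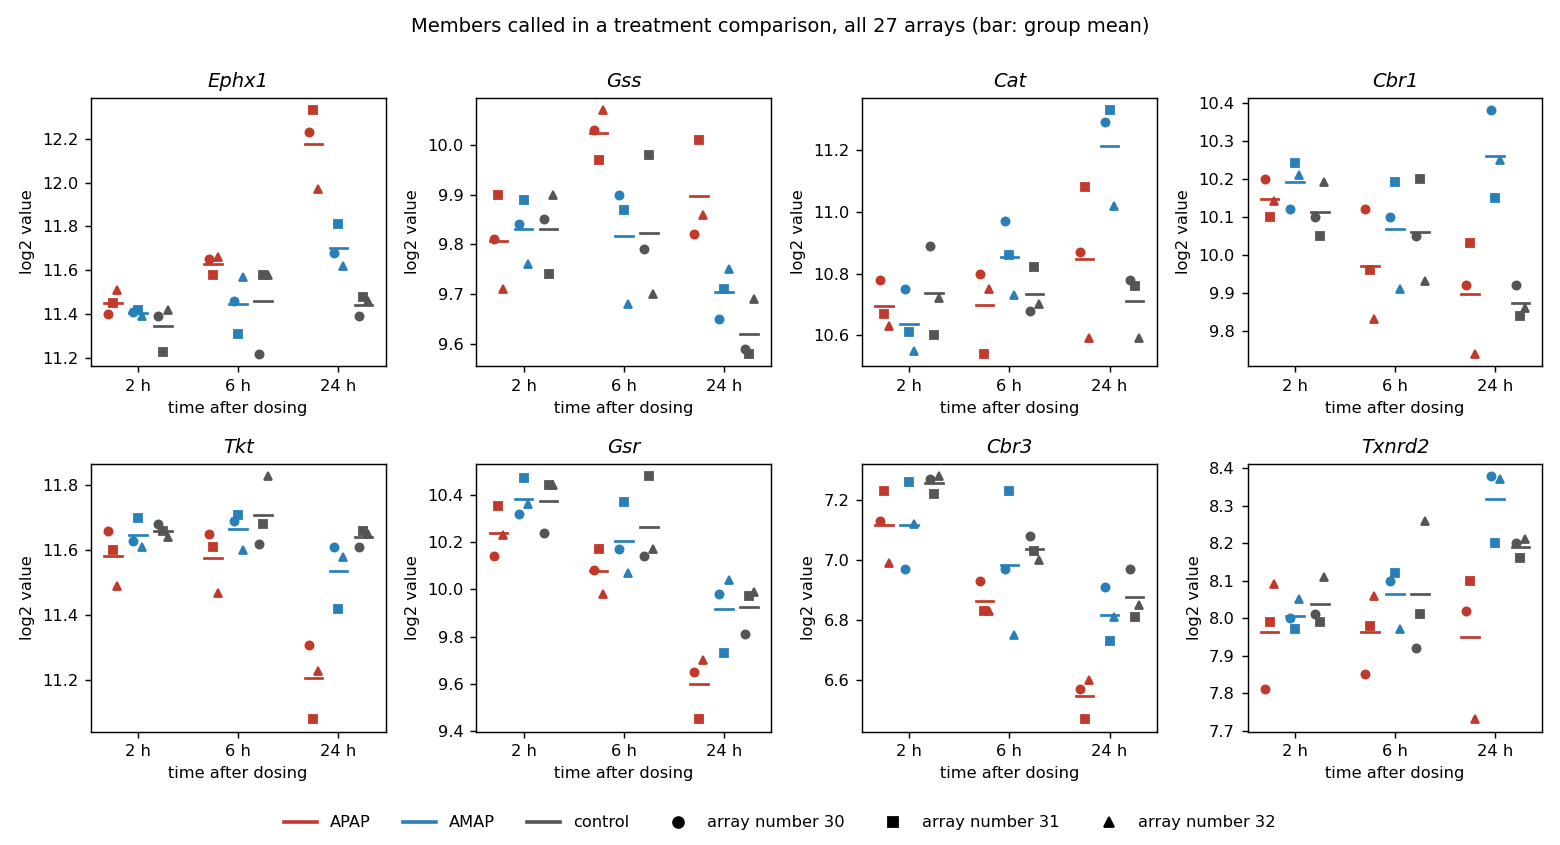
Log2 signal of the 8 members called in at least 1 treatment comparison, by array (points) and group mean (lines), at 2, 6 and 24 h for APAP, AMAP and control. At 24 h Ephx1 is highest with APAP and Cat and Cbr1 are highest with AMAP, while Tkt, Gsr and Cbr3 are lowest with APAP.

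The classical inducible targets of NRF2 did not pass the test in the model of group means. Hmox1, Nqo1, Srxn1, Gclc, Gclm, Slc7a11 and Txnrd1 were called in none of its 9 treatment comparisons. With the array number as a block, Gclm was called lower for APAP against AMAP at 24 h (-0.43, adjusted p = 0.0182) and for APAP against control at 24 h (-0.34, adjusted p = 0.04026). Arrays of the same number deviated together in the first of these comparisons and not in the second. Hmox1, the heme oxygenase that turns heme into biliverdin, had 8.85, 8.77 and 9.13 in APAP cultures at 24 h, 8.55, 8.62 and 8.92 in AMAP cultures and 8.59, 8.64 and 8.92 in control cultures. Its groups overlapped, and the difference of APAP from control was 0.20 ± 0.11 (95% interval -0.01 to 0.42, adjusted p = 0.2633). At 2 h Hmox1 had 8.91, 9.06 and 8.98 in APAP cultures, 8.92, 9.10 and 8.96 in AMAP cultures and 8.96, 8.89 and 9.09 in control cultures. At 6 h it had 9.00, 8.86 and 9.04 in APAP cultures, 8.81, 8.82 and 8.61 in AMAP cultures and 8.74, 8.88 and 8.79 in control cultures, where all 3 APAP arrays were higher than all 3 AMAP arrays (0.22 ± 0.11, adjusted p = 0.6623).

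Nqo1, the quinone reductase, had 5.27, 5.20 and 5.44 in APAP cultures at 24 h, 4.85, 5.11 and 5.12 in AMAP cultures and 5.32, 5.17 and 5.36 in control cultures. The APAP and control groups overlapped, with a difference of 0.02 ± 0.13 (95% interval -0.24 to 0.28). All AMAP arrays were lower than all control arrays, by -0.25 ± 0.13 on the signed log2 scale (adjusted p = 0.4605). Its probe set was dim, with a mean signal at the 13.9th percentile of all genes. At 2 h Nqo1 had 5.13, 5.62 and 5.26 in APAP cultures, 5.12, 5.07 and 5.30 in AMAP cultures and 4.90, 5.25 and 5.02 in control cultures, and APAP differed from control by 0.28 ± 0.13 (95% interval 0.02 to 0.54, adjusted p = 0.4857). At 6 h it had 5.36, 5.32 and 5.28 in APAP cultures, 5.09, 5.40 and 5.12 in AMAP cultures and 5.04, 5.49 and 5.39 in control cultures, and all 3 groups overlapped. No other member had a higher APAP minus control difference at 2 h, where APAP array 31 stood above the others.

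Srxn1, which repairs overoxidised peroxiredoxins and whose site is shown above, had 9.25, 9.62 and 9.34 in APAP cultures at 24 h, 9.26, 9.39 and 9.48 in AMAP cultures and 9.25, 9.34 and 9.32 in control cultures. These groups overlapped, and the difference of APAP from control was 0.10 ± 0.11 (95% interval -0.12 to 0.32). At 2 h it had 9.59, 9.80 and 9.64 in APAP cultures, 9.63, 9.97 and 9.79 in AMAP cultures and 9.56, 9.81 and 9.73 in control cultures, which overlapped as well. At 6 h Srxn1 had 9.55, 9.67 and 9.68 in APAP cultures, 9.75, 9.99 and 9.68 in AMAP cultures and 9.39, 9.65 and 9.57 in control cultures. There the AMAP arrays were all higher than the control arrays, by 0.27 ± 0.11 (95% interval 0.05 to 0.49, adjusted p = 0.3764). Txnrd1, the cytosolic thioredoxin reductase, had 10.31, 10.40 and 10.32 in APAP cultures at 24 h, 10.12, 10.41 and 10.25 in AMAP cultures and 10.07, 10.25 and 10.29 in control cultures. The APAP arrays lay just above the control arrays, and the difference was 0.14 ± 0.10 (95% interval -0.07 to 0.35, adjusted p = 0.4647). At 2 h Txnrd1 had 10.44, 10.60 and 10.68 in APAP cultures, 10.36, 10.67 and 10.33 in AMAP cultures and 10.40, 10.62 and 10.61 in control cultures, and at 6 h 10.30, 10.49 and 10.60 in APAP cultures, 10.41, 10.56 and 10.47 in AMAP cultures and 10.31, 10.51 and 10.55 in control cultures. All groups overlapped at these times.

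The glutamate cysteine ligase that limits the rate of glutathione synthesis has a catalytic subunit, Gclc, and a modifier subunit, Gclm. At 24 h Gclc had 11.90, 11.88 and 11.68 in APAP cultures, 11.65, 11.71 and 11.58 in AMAP cultures and 11.62, 11.68 and 11.54 in control cultures. Its APAP difference from control was 0.21 ± 0.11 (95% interval -0.01 to 0.43, adjusted p = 0.2542), with overlapping groups. Gclm had 9.90, 9.54 and 9.74 in APAP cultures, 10.36, 10.02 and 10.07 in AMAP cultures and 10.12, 10.23 and 9.86 in control cultures. Its APAP difference had the opposite sign, -0.34 ± 0.14 (95% interval -0.62 to -0.06, adjusted p = 0.1177), and it did not pass the test without the block. At 2 h Gclm had 10.41, 10.49 and 10.27 in APAP cultures, 10.46, 10.65 and 10.49 in AMAP cultures and 10.55, 10.59 and 10.52 in control cultures, and at 6 h 10.45, 10.47 and 9.99 in APAP cultures, 10.56, 10.65 and 10.23 in AMAP cultures and 10.67, 10.63 and 10.29 in control cultures. The differences of APAP from control were -0.16 ± 0.14 at 2 h and -0.23 ± 0.14 at 6 h, and neither passed the test, although the groups did not overlap at 2 h. Gclc at 2 h had 11.85, 12.10 and 12.13 in APAP cultures, 11.91, 12.26 and 12.08 in AMAP cultures and 11.95, 12.24 and 12.23 in control cultures, and at 6 h 11.58, 11.66 and 11.63 in APAP cultures, 11.80, 11.83 and 11.56 in AMAP cultures and 11.59, 11.89 and 11.56 in control cultures, all overlapping.

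Slc7a11, the light chain of the cystine and glutamate exchanger, was the most variable member within groups. At 24 h it had 7.47, 7.39 and 7.75 in APAP cultures, 7.75, 8.17 and 8.16 in AMAP cultures and 7.50, 7.77 and 8.42 in control cultures, and APAP differed from control by -0.36 ± 0.34 (95% interval -1.06 to 0.35). At 2 h it had 8.20, 9.26 and 9.52 in APAP cultures, 8.44, 9.62 and 9.29 in AMAP cultures and 8.24, 9.45 and 9.41 in control cultures, and at 6 h 8.02, 8.60 and 8.72 in APAP cultures, 7.99, 8.76 and 8.80 in AMAP cultures and 7.74, 8.37 and 8.54 in control cultures. Array 30 was the lowest of its group in 8 of 9 groups for Slc7a11, and likewise in 8 of 9 for Srxn1, Txnrd1 and the autophagy adaptor Sqstm1. Array 32 was the lowest in 8 of 9 groups for the glutathione peroxidase Gpx1. The interval of Slc7a11 was the widest of these 7 targets at every time. At 24 h the upper ends of the intervals for APAP against control were between -0.06 for Gclm and 0.43 for Gclc.

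**Figure D3:**
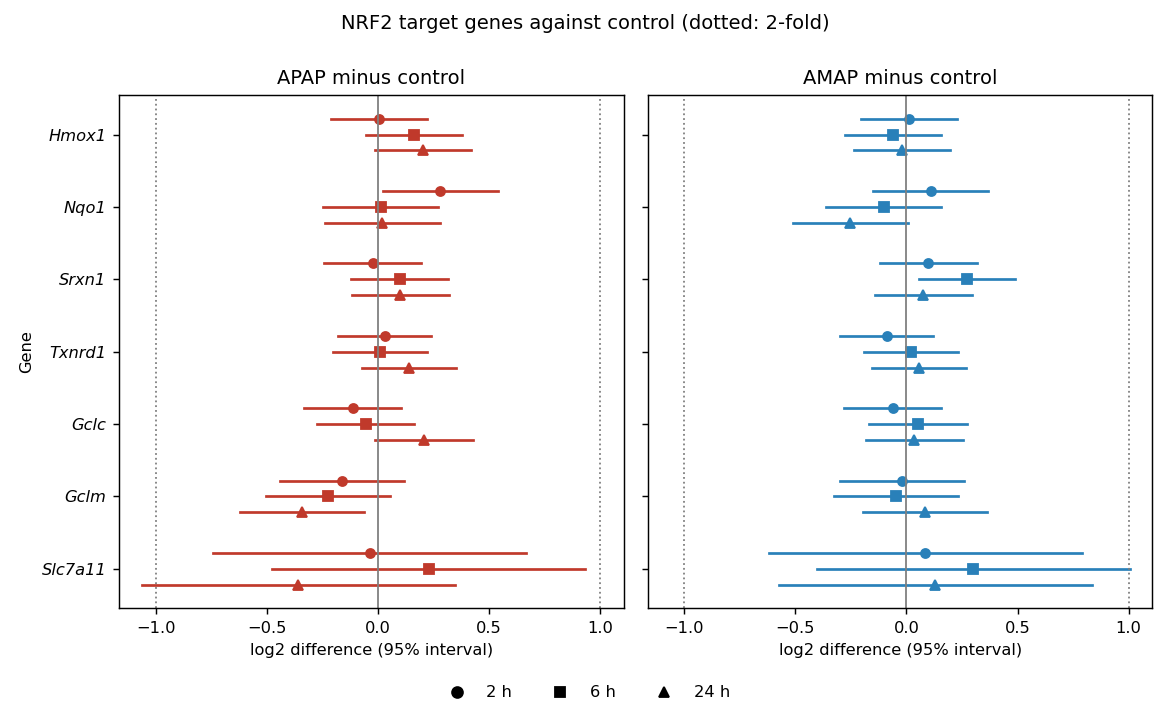
Log2 difference from control with its 95% interval for 7 NRF2 targets at 2, 6 and 24 h, for APAP and AMAP; the solid vertical line marks 0 and the dotted lines a 2-fold difference. The estimates lie between -0.36 and 0.30, no gene was called in the model of group means that is plotted, and the intervals of Slc7a11 are the widest.

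For AMAP against control, 2 of 38 members were called at 24 h (5.26%), against 0.727% of all genes. Both were higher, as were 0.311% of all genes. AMAP is the regioisomer that is often used beside APAP in toxicity studies. Catalase (Cat), which splits hydrogen peroxide in peroxisomes, had 11.29, 11.33 and 11.02 in AMAP cultures at 24 h, against 10.78, 10.76 and 10.59 in control cultures. All AMAP arrays were higher than all control arrays, and Cat rose by 0.50 ± 0.11 (1.42-fold, adjusted p = 0.02537). Cbr1, the main carbonyl reductase, had 10.38, 10.15 and 10.25 in AMAP cultures, against 9.92, 9.84 and 9.86 in control cultures. Its groups did not overlap either, and it rose by 0.39 ± 0.09 (1.31-fold, adjusted p = 0.03904). The call of Cbr1 was lost without any 1 of the 6 arrays (adjusted p 0.07665 to 0.1562), and that of Cat held on omitting AMAP array 32 alone (adjusted p 0.05504 to 0.1611 without 1 of the others). With the 24 h arrays alone in the model neither passed, with adjusted p = 0.1296 for Cat and 0.1119 for Cbr1. The median difference was -0.004 over the members and -0.01 over all genes, and 9 of 38 members had an unadjusted p under 0.05, as did 2229 of 19938 genes.

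At 2 and 6 h none of the members was called for AMAP against control with limma. An unadjusted p under 0.05 was held by 1 member at 2 h and 4 at 6 h, and by 1356 and 1889 of 19938 genes. The share of all genes called was 0.181% at 2 h and 0.456% at 6 h. Cat had 10.75, 10.61 and 10.55 at 2 h and 10.97, 10.86 and 10.73 at 6 h in AMAP cultures, against 10.89, 10.60 and 10.72 at 2 h and 10.68, 10.82 and 10.70 at 6 h in control cultures. Cbr1 had 10.12, 10.24 and 10.21 at 2 h and 10.10, 10.19 and 9.91 at 6 h in AMAP cultures, against 10.10, 10.05 and 10.19 at 2 h and 10.05, 10.20 and 9.93 at 6 h in control cultures. Both genes had overlapping groups at these times. For the AMAP effect at 24 h minus that at 2 h, the limma model of group means called 0 of 38 members and no other gene. In that contrast 4 members and 937 of 19938 genes had an unadjusted p under 0.05. With the array number as a block the model called 7 genes, none of them a member.

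The compounds were compared directly at the same dose at 3 matched times. At 24 h, 4 of 38 members were called (10.5%), against 4.65% of all genes. Ephx1 was higher with APAP than with AMAP, where 1.87% of all genes were called higher, and Tkt, Cbr1 and Txnrd2 were lower, where 2.78% were called lower. Ephx1 had 12.23, 12.33 and 11.97 in APAP cultures, against 11.68, 11.81 and 11.62 in AMAP cultures, and the groups lay apart by 0.47 ± 0.10 (1.39-fold, adjusted p = 0.003364). Its call held without any single array, and not without all arrays of number 30 (0.44, adjusted p = 0.1412) or number 31 (0.45, adjusted p = 0.05825). AMAP against control gave 0.26 ± 0.10 for Ephx1 with groups that did not overlap, though it did not pass the test (adjusted p = 0.2496).

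Tkt had 11.31, 11.08 and 11.23 in APAP cultures, against 11.61, 11.42 and 11.58 in AMAP cultures. It was lower with APAP on every array, by -0.33 ± 0.08 on the signed log2 scale (adjusted p = 0.009857). The call was lost without APAP array 31 (-0.27, adjusted p = 0.06193) or AMAP array 30 (-0.30, adjusted p = 0.06502). Cbr1 had 9.92, 10.03 and 9.74 in APAP cultures, against 10.38, 10.15 and 10.25 in AMAP cultures, which did not overlap. The difference was -0.37 ± 0.09 (adjusted p = 0.0186), and APAP against control gave 0.03 ± 0.09 for the same gene. Txnrd2, the mitochondrial thioredoxin reductase, had 8.02, 8.10 and 7.73 in APAP cultures, 8.38, 8.20 and 8.37 in AMAP cultures and 8.20, 8.16 and 8.21 in control cultures. APAP was lower than AMAP by -0.37 ± 0.10 on the signed log2 scale (adjusted p = 0.02333), and against control the difference was -0.24 ± 0.10 for APAP (adjusted p = 0.1172) and 0.13 ± 0.10 for AMAP (adjusted p = 0.6817). Both compounds were set against the same control arrays. The calls of Cbr1 and Txnrd2 were lost without APAP array 32, AMAP array 30 or AMAP array 32, with differences of -0.37 to -0.29 for Cbr1 (adjusted p 0.05424 to 0.1171) and -0.34 to -0.26 for Txnrd2 (adjusted p 0.09275 to 0.1586).

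In this 24 h comparison arrays of the same number deviated together, and the model with the number as a block called 7 members in place of 4. The 3 added were Gclm (-0.43, adjusted p = 0.0182), Cat (-0.37, adjusted p = 0.02077) and Pgd (-0.36, adjusted p = 0.01594), which without the block had adjusted p = 0.07059, 0.05448 and 0.06004. Pgd, an NADPH-forming dehydrogenase of the pentose phosphate pathway, had 10.46, 10.28 and 10.37 in APAP cultures, against 10.72, 10.71 and 10.77 in AMAP cultures, which did not overlap. Cat had 10.87, 11.08 and 10.59 in APAP cultures at 24 h, a range that overlapped the AMAP arrays. With the 24 h arrays alone in the model Ephx1 was the sole member called. At 2 h no member was called between the compounds with limma, while 0.261% of all genes were called. No member had an unadjusted p under 0.05 there, as 1860 of 19938 genes did. At 6 h none was called, with 0.707% of all genes called. An unadjusted p under 0.05 was held there by 5 members and by 1477 of 19938 genes. Member differences between the compounds ran from -0.15 to 0.21 at 2 h and from -0.25 to 0.31 at 6 h.

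At the earlier times no called member passed the test between the compounds. Ephx1 had 11.41, 11.42 and 11.39 at 2 h and 11.46, 11.31 and 11.57 at 6 h in AMAP cultures, and its APAP minus AMAP difference was 0.05 ± 0.10 at 2 h (95% interval -0.15 to 0.24) and 0.18 ± 0.10 at 6 h (95% interval -0.01 to 0.38), where the groups did not overlap. Tkt had 11.63, 11.70 and 11.61 at 2 h and 11.69, 11.71 and 11.60 at 6 h in AMAP cultures, with differences of -0.07 ± 0.08 and -0.09 ± 0.08. Txnrd2 had 7.81, 7.99 and 8.09 at 2 h and 7.85, 7.98 and 8.06 at 6 h in APAP cultures, against 8.00, 7.97 and 8.05 at 2 h and 8.10, 8.12 and 7.97 at 6 h in AMAP cultures. The groups of Tkt and Txnrd2 overlapped at both times. Control cultures had 8.01, 7.99 and 8.11 at 2 h and 7.92, 8.01 and 8.26 at 6 h for Txnrd2. Cbr1 had 10.20, 10.10 and 10.14 at 2 h and 10.12, 9.96 and 9.83 at 6 h in APAP cultures, and Cat had 10.78, 10.67 and 10.63 at 2 h and 10.80, 10.54 and 10.75 at 6 h in APAP cultures. The differences of APAP from AMAP were -0.04 ± 0.09 and -0.09 ± 0.09 for Cbr1, and 0.06 ± 0.11 and -0.16 ± 0.11 for Cat, at 2 and 6 h in that order. The APAP and AMAP groups of both genes overlapped at these times. The AMAP arrays gave 9.65, 9.71 and 9.75 for Gss, 9.98, 9.73 and 10.04 for Gsr and 6.91, 6.73 and 6.81 for Cbr3 at 24 h. The APAP minus AMAP differences at 24 h were 0.20 ± 0.08 for Gss, -0.31 ± 0.10 for Gsr and -0.27 ± 0.10 for Cbr3, with groups that did not overlap and adjusted p values of 0.1765, 0.08491 and 0.1141. The AMAP cultures had 9.84, 9.89 and 9.76 at 2 h and 9.90, 9.87 and 9.68 at 6 h for Gss. For Gsr they had 10.32, 10.47 and 10.36 at 2 h and 10.17, 10.37 and 10.07 at 6 h, and for Cbr3 6.97, 7.26 and 7.12 at 2 h and 6.97, 7.23 and 6.75 at 6 h. These groups overlapped the control groups given above.

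By role, the remaining members gave no call between treatments. The counts by role at 24 h stand against 9.33% of all genes called for APAP and 0.727% for AMAP against control. At those shares a role of a few genes would hold few or no calls. The 5 regulators are Nfe2l2, its inhibitor Keap1, the competing repressor Bach1, the NRF2 partner Mafg and Sqstm1, which withdraws KEAP1. Their differences at 24 h ran from -0.18 to 0.09 for APAP against control and from -0.04 to 0.22 for AMAP against control, and 0 of 5 were called. Nfe2l2 itself differed by 0.05 ± 0.08 for APAP (95% interval -0.11 to 0.20). Keap1 had the regulators' lowest value, -0.18 ± 0.08 for APAP (adjusted p = 0.1764), with groups that did not overlap. Of the 7 genes of heme and quinone defence, 1 rose and 1 fell with APAP and 1 rose with AMAP, as given above. Akr1b8, an aldose reductase-like enzyme, had -0.37 ± 0.13 for APAP (adjusted p = 0.07973) and -0.42 ± 0.13 for AMAP (adjusted p = 0.1523), and Blvrb, the biliverdin reductase B, 0.19 ± 0.10 for APAP and 0.32 ± 0.10 for AMAP. Neither passed the test against control, although groups did not overlap for either gene or compound.

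The role named glutathione synthesis and cystine supply held 6 measured genes. Gsr was counted there, although it reduces glutathione disulfide and does not make glutathione. Of the 6, 1 rose (Gss) and 1 fell (Gsr) with APAP at 24 h and none was called with AMAP. Slc3a2, the heavy chain that carries Slc7a11 to the membrane, differed by -0.01 ± 0.10 for APAP and 0.18 ± 0.10 for AMAP. The 4 glutathione peroxidases (Gpx1, Gpx2, Gpx3 and Gpx4) ran from -0.18 to 0.12 for APAP and from -0.30 to -0.01 for AMAP, and 0 of 4 were called. Gpx1, the cytosolic enzyme, had -0.28 ± 0.13 for AMAP (adjusted p = 0.4361). Of the 6 thioredoxin, glutaredoxin and sulfiredoxin genes none was called against control, and the glutaredoxin Glrx was lowest with AMAP, at -0.35 ± 0.15 (adjusted p = 0.3443). Glrx2, the mitochondrial glutaredoxin, differed by -0.14 ± 0.08 for APAP, and Txn2, the mitochondrial thioredoxin, by -0.17 ± 0.09.

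Among the 6 peroxiredoxins, catalase and superoxide dismutases, Cat alone was called, with AMAP. Prdx2, a cytosolic peroxiredoxin, differed by -0.29 ± 0.09 with APAP at 24 h (adjusted p = 0.05171). The brightest probe sets of Prdx1, Prdx2 and Me1 stood among probe sets of other chromosomes in the array's numbering, with 0 of 19, 0 of 20 and 1 of 15 neighbours on the gene's own chromosome. With the other probe set of each gene, chosen after this was seen, Prdx2 fell with APAP by 0.37 (adjusted p = 0.02395), which is the sole call that this choice changed. Sod2, the mitochondrial superoxide dismutase, had -0.24 ± 0.09 for APAP (adjusted p = 0.1204) and -0.20 ± 0.09 for AMAP. Prdx3, Sod1 and Prdx1 had no call in any comparison. In the role named NADPH supply all 4 measured genes (Pgd, Tkt, Taldo1 and Me1) had negative differences with APAP at 24 h, from -0.43 to -0.21. The median over all genes was 0.018. Of the 4, 1 was called (Tkt), against 9.33% of all genes. Tkt and Taldo1 were counted there, although they do not form NADPH themselves, and G6pdx was not measured. Taldo1, the transaldolase that works beside Tkt, had -0.29 ± 0.13 (adjusted p = 0.1645), and Me1, the malic enzyme that forms NADPH in the cytosol, -0.26 ± 0.13 (adjusted p = 0.2421). With AMAP the same 4 genes ran from -0.15 to 0.15.

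Time in culture was compared in the control cultures. Of 38 members, 2 were called at 24 h against 2 h (5.26%), both lower, with 1.14% of all genes called and 0.627% called lower. A single member of 38 was called at 6 h against 2 h (2.63%), with 0.707% of all genes called and 0.266% called lower. Gclc had 11.95, 12.24 and 12.23 at 2 h, 11.59, 11.89 and 11.56 at 6 h and 11.62, 11.68 and 11.54 at 24 h in control cultures. The arrays of 6 h and of 24 h were all lower than those of 2 h. It fell by 0.46 at 6 h (adjusted p = 0.03536) and by 0.53 at 24 h (adjusted p = 0.01758), each with a standard error of 0.11. Gsr had 10.24, 10.44 and 10.44 at 2 h, 10.14, 10.48 and 10.17 at 6 h and 9.81, 9.97 and 9.99 at 24 h, and it fell by 0.45 at 24 h (adjusted p = 0.03078). The count at 24 h was 0 to 4 on leaving out 1 array, with 4 without control array 30 of 2 h, 1 without control array 31 of 24 h and 0 without any 1 of the other 4. At 6 h the call was lost without control array 31 or 32 of 2 h or 30 or 32 of 6 h.

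Across the module the 24 h control cultures were higher than the 2 h ones for 11 of 38 members. The median difference was -0.125 over the members and 0.005 over all genes, and 16 of 38 members had an unadjusted p under 0.05, as did 2797 of 19938 genes. Of the 6 genes of glutathione synthesis and cystine supply, with Gsr counted among them, 5 had an unadjusted p under 0.05 and the median was -0.468. Slc7a11 in control cultures at 24 h differed by -1.14 ± 0.34 from that at 2 h (95% interval -1.84 to -0.43, adjusted p = 0.1018), with overlapping groups. Gclm differed by -0.49 ± 0.14 (adjusted p = 0.07164), Srxn1 by -0.40 ± 0.11 (adjusted p = 0.06193), Txnrd1 by -0.34 ± 0.10 (adjusted p = 0.1016) and Pgd by -0.39 ± 0.11 (adjusted p = 0.08). These 4 genes had control arrays at 24 h that did not overlap those at 2 h, a trait that was not counted over all genes. None of them passed the test in the model of group means. Each did with the array number as a block (adjusted p 0.004496 to 0.02071), as did Slc7a11 (adjusted p = 0.001129). Deviations of control arrays of the same number correlated between 2 and 24 h by 0.169, 0.075 and -0.075. These correlations run over all genes and show no pairing for this comparison. The block, however, was fitted over all 27 arrays, so its calls rest on the number in all 9 groups. Array 30 was the lowest of its group in 8 of 9 groups for Slc7a11, Srxn1 and Txnrd1, in 6 for Pgd and in 1 for Gclm. Cbr3 had -0.37 ± 0.10 (adjusted p = 0.05021). The AMAP and APAP effects at each time were taken against the control of that time.

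**Figure D4:**
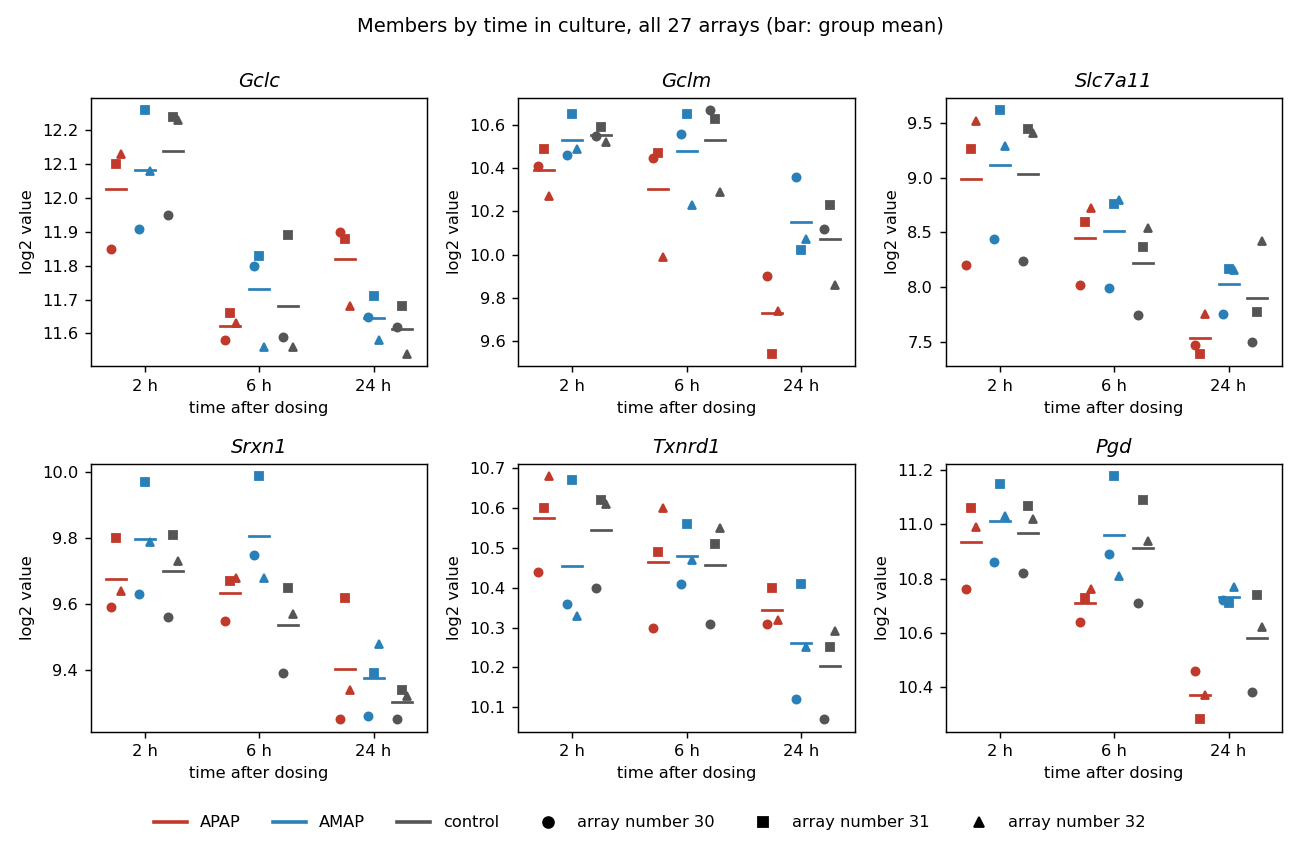
Log2 signal of Gclc, Gclm, Slc7a11, Srxn1, Txnrd1 and Pgd by array (points) and group mean (lines) at 2, 6 and 24 h for APAP, AMAP and control. In the control cultures each gene is lower at 24 h than at 2 h on average, and Gclc is the one of these 6 called in the model of group means, while all 6 were called with the array number as a block. The number did not pair the control arrays of these times by their deviations.

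A further 53 genes of NRF2 control and of heme, glutathione, thioredoxin and NADPH metabolism were listed beside the members, and 51 were matched. With APAP at 24 h 0 of 51 rose and 7 fell (13.7%), against 9.33% of all genes called, 3.36% higher and 5.97% lower. The median difference was -0.103 over the list and 0.018 over all genes. The 7 were Ggt6, Cth, Txn1, Idh1, Cul3, Idh2 and Nqo2. Ggt6, of the gamma-glutamyltransferase family, had 7.61, 7.68 and 7.44 in APAP cultures, against 8.02, 7.98 and 7.93 in control cultures, and it fell by 0.40 (adjusted p = 0.003285). Cth, which makes cysteine from cystathionine, had 9.03, 9.13 and 9.25 in APAP cultures, against 9.45, 9.65 and 9.75 in control cultures, and it fell by 0.49 (adjusted p = 0.01126). These groups did not overlap for either gene. Txn1, the cytosolic thioredoxin, had 12.48, 12.59 and 12.67 in APAP cultures, against 12.85, 12.81 and 12.86 in control cultures, and it fell by 0.26 (adjusted p = 0.01268). Idh1, an isocitrate dehydrogenase that forms NADPH, had 11.19, 11.14 and 10.93 in APAP cultures, against 11.53, 11.61 and 11.22 in control cultures, and it fell by 0.37 (adjusted p = 0.01426). The APAP arrays of these genes too were all lower than the control arrays.

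Between APAP and AMAP at 24 h, 6 of the 51 were called (11.8%), against 4.65% of all genes. All 6 were lower with APAP, as were 2.78% of all genes, namely Idh1, Cth, Ggt6, Pir, Cul3 and Nfe2l1. Cth had 9.03, 9.13 and 9.25 in APAP cultures, against 9.91, 9.79 and 9.87 in AMAP cultures (-0.72 ± 0.12, adjusted p = 0.0004859). Idh1 had 11.19, 11.14 and 10.93 in APAP cultures, against 11.77, 11.64 and 11.63 in AMAP cultures (-0.59 ± 0.09, adjusted p = 0.0002735). Neither pair of groups overlapped. Pir, encoding the iron-binding protein pirin, had 7.42, 7.29 and 7.38 in APAP cultures, against 8.02, 7.78 and 8.12 in AMAP cultures (-0.61 ± 0.12, adjusted p = 0.002957), and Ggt6 differed by -0.46 ± 0.09 (adjusted p = 0.001359). With AMAP against control 0 of 51 were called at 6 and 24 h with limma, against 0.456% and 0.727% of all genes. An unadjusted p under 0.05 was held by 8 at 6 h and 7 at 24 h, and by 1889 and 2229 of 19938 genes. Earlier calls were Chac1, a glutathione-degrading enzyme, at 2 h with both compounds and Ggt6 at 6 h with APAP. Each was 1 of 51 (1.96%). Of all genes, 0.682% were called with APAP and 0.181% with AMAP at 2 h, and 2.50% with APAP at 6 h. Chac1 had 8.76, 8.92 and 9.22 in APAP cultures and 8.83, 9.06 and 9.25 in AMAP cultures at 2 h, against 8.07, 8.26 and 8.24 in control cultures. It rose with both, by 0.78 ± 0.14 with APAP (adjusted p = 0.003283) and by 0.86 ± 0.14 with AMAP (adjusted p = 0.006282), and both rest on the same 3 control arrays. Ggt6 had 7.72, 7.73 and 7.85 in APAP cultures at 6 h, against 7.94, 8.16 and 8.26 in control cultures, and it fell by 0.35 (adjusted p = 0.02372). In control cultures Pir (-0.52) and Cth (-0.51) fell at 24 h against 2 h. These were 2 of 51 (3.92%), against 1.14% of all genes called and 0.627% called lower.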

How the data were processed

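Total RNA was hybridised to 27 Affymetrix Mouse Gene 1.0 ST arrays, per the labels' protocols, and summarised with RMA in Affymetrix Expression Console 1.1, per the submitters' processing notes. The authors deposited 1 log2 value per probe set and array. RMA gives values on base 2 and compresses differences of dim genes. Of 35557 probe sets, 21789 carry a single gene symbol in the platform's annotation, 1621 several and 12147 none. The brightest probe set was kept for each of 999 genes with several, 4 members among them, which gave 19938 genes with no filter on signal. A model of 9 group means over all 27 arrays was fitted with limma 3.58.1 in R 4.3.3 (18 residual and 7.3 prior degrees of freedom), and tests were two-sided, with Benjamini-Hochberg adjustment within each comparison.

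The members, the other pathway genes and the alternatives were chosen with earlier results of these data known. Values of every array are given for members called in a treatment comparison and for 7 classical targets, and other members are given by ranges and counts. Whether numbers pair arrays was checked by correlating deviations from group means: every number was over 0.1 in 5 of 9 treatment comparisons (APAP against control at 2 and 6 h, AMAP against control at 6 h, APAP against AMAP at 6 and 24 h). Arrays of the control times were not paired by this check. The pairing rests on the data, since the labels do not say what the number stands for. Promoter sequences are from RefSeq, GRCm38.p6, and the array files name no genome build.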

Additional observations from a re-analysis of the deposited data

Results flagged for a closer look

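The effect of APAP on Ephx1 was called different between 24 h and 2 h with all arrays in the model. That call was lost without the arrays of any number and without most single arrays. Over the alternatives its adjusted p in limma reached 0.6661. The difference of APAP from control was 0.74 ± 0.10 at 24 h and 0.11 ± 0.10 at 2 h, and the difference between these, tested in limma, was 0.63 ± 0.14 (adjusted p = 0.03694). At 24 h all 3 APAP arrays were higher than the 3 control arrays, and at 2 h the groups overlapped. Groups of 3 arrays are too small to test for a single array that stands apart.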

How the results depend on the processing

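No member called changed direction under any alternative. Of the 12 called differences between treatments or in the APAP effect between times, all 12 kept their side of the threshold with the replicate block, median-centred arrays, a trended and robust variance prior and the mean over probe sets, as did all 11 that remained with dim genes left out and 11 of 12 with quantile normalization. With the arrays of the compared times alone, 5 of 12 did. Members called for APAP against control at 24 h numbered 5, against 3 with those arrays alone. For AMAP against control at 24 h the 2 became 0, for APAP against AMAP at 24 h the 4 became 1, for control at 6 h against 2 h the 1 became 0, and for control at 24 h against 2 h the 2 became 4. Over all genes the calls went from 1860 to 1265, 145 to 52, 928 to 557, 141 to 93 and 227 to 250, in the same order. Centring gave 9 members for APAP against AMAP at 24 h and 5 for control at 24 h, with 1425 and 297 of all genes called. Leaving out dim genes gave 8, 2 and 6 members for APAP against AMAP at 24 h, control at 6 h and control at 24 h. Of all genes kept, 1163, 226 and 529 were called there. The trended prior gave 4 members for control at 24 h. The cause of these shifts was not tested, except that fewer genes or arrays enter where some are left out.

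With the replicate block, members called were 8 for APAP against control at 24 h (Gclm, Prdx2 and Akr1b8 added), 7 for APAP against AMAP at 24 h, 3 for control at 6 h and 8 for control at 24 h, where Slc7a11 had -1.14 ± 0.18 (adjusted p = 0.001129). Calls over all genes rose too, from 1860 to 2313, 928 to 1262, 141 to 271 and 227 to 502 in that order. The block ended no call of a member. The numbers pair arrays by the data for APAP against AMAP at 24 h alone among these 4 comparisons. For each array, correlations of deviations were also averaged over all arrays of a number. The array's own number had the highest average for 25 of 27 arrays. Arrays of its own group enter the averages of the other numbers, and their deviations from the shared mean oppose its own. The count therefore favours the own number.

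Leaving out 1 array gave 2 to 7 members for APAP against control at 24 h, 0 to 1 for AMAP against control, 1 to 5 for APAP against AMAP, 0 to 1 for the APAP effect between times, 0 to 4 for control at 24 h and 0 to 1 for control at 6 h. Leaving out a number gave 1 to 5, 0, 0 to 1, 0, 0 to 1 and 0 to 1 for the same comparisons. The 41 of 78 member calls that left the threshold without 1 array and 28 of 36 without a number kept their direction. With 2 arrays left in a group, the model takes its spread from all groups.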
